A study of Mus musculus with 24 samples.

Results

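Ribosomal protein genes code for the proteins that, with the ribosomal RNAs, build the small (40S) and large (60S) subunits of the cytosolic ribosome. Their messages are among the most abundant in a cell, and in the literature most are described as beginning with a run of pyrimidines (a terminal oligopyrimidine or TOP start) through which mTOR, by way of Larp1 and the 4E-BP proteins, controls how much of each message is translated rather than how much of it is made. Low oxygen lowers mTOR activity in many cells, so the amount of these messages and the protein made from them can part, and an array measures the message alone.

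The genes described here were chosen by name. They are all probe sets to which the array annotation gives a single symbol that begins with Rpl or Rps and a digit, or is Rplp0, Rplp1, Rplp2 or Rpsa, without the Rps6k kinases and without pseudogenes (-ps). This took 106 of 45037 probe sets and 50 of 18193 genes. By role they were 21 genes of the small subunit, 20 of the large subunit, the stalk genes Rplp0 and Rplp2, the 6 paralogs Rpl22l1, Rpl39l, Rpl3l, Rpl7l1, Rps27l and Rps4l, and Rps19bp1, a nucleolar protein named for its binding to Rps19 that is no part of the ribosome. A further 110 probe sets carried several symbols of which at least 1 fitted the rule, and they are given apart.

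RNA came from retinas of BALB/c mice, whose age is not given in the sources used here and which, per the methods, all carried the light-sensitive Leu form of Rpe65. The hypoxic groups breathed 6% oxygen for 6 h and were sampled after 0, 2, 4 or 16 h of reoxygenation in darkness in room air, and normoxic groups were handled in parallel and collected at the same times. None of these retinas is described as exposed to bright light, which belonged to other experiments of the study. Each of the 8 groups had 3 arrays of independent pools, and 3 mice gave 1 retina each to a pool, so that variation between single mice cannot be seen.

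All values are log2 signals, and a change is the hypoxic minus the normoxic mean of a time point. A probe set was tested where the mean of either treatment reached 6.69, and was called changed at a limma adjusted p under 0.05. The array medians lay between 5.79 and 5.84. The labelled tissue was checked on rod markers, which averaged 13.3 to 13.6 on every array and of which 3 of 11 were lower at 0 h, led by Gngt1 (-0.60). The rod averages were lower after hypoxia without overlap at 0 h (13.35 to 13.42 against 13.52 to 13.56). The same held at 2 h (13.27 to 13.30 against 13.43 to 13.56). Other tissue moved with some arrays: 7 of 8 tested markers of the retinal pigment epithelium were higher at 0 h (median change 2.68; the mean of the list was 8.52 to 8.67 on hypoxic and 6.74 to 6.99 on normoxic arrays), and the lens markers averaged 7.74 on normoxia 0 h replicate 2 against 10.4 to 12.9 on the other arrays (0 of 13 called at 0 h by limma, with 11 at an unadjusted p under 0.05). At 0 h 1 of 8 tested Mueller glia markers (Vim, 0.56), 2 of 14 of inner neurons (Cabp5, -0.58; Pou4f1, 0.41), 1 of 4 of endothelium (Kdr, -0.71), 1 of 2 of fibroblasts (Pdgfra, 0.63) and 0 of 3 of microglia were called, and no erythroid marker reached the threshold. On normoxia 16 h replicate 3 the 3′ minus 5′ signal of actin, a sign of RNA quality, was 1.19 against 0.55 to 0.78 elsewhere. Among the normoxic arrays these 2 stood farthest from the others, and results are given without them where that matters. In pooled tissue, fewer cells of a type and less RNA per cell cannot be told apart.

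At the annotated starts, a pyrimidine run was found in a minority of these promoters, at a larger share than among all promoters. RefSeq promoters (GRCm38.p6) were found for 44 of the 50 genes, 52 promoters in all. A C at the first transcribed base followed by 4 or more C or T stood in 8 of the 52 (15.4%), against 2.21% of 21263 promoters of protein-coding genes. CTTTC or CTTCC on the same strand within 15 bases of the start stood in 15 (28.8%, against 10.5%), and 6 promoters held both. CCGGAAG, searched on both strands from 250 bases before to 50 after the start, was in 21 (40.4%, against 11.6%), AAGATGGC in 4 (7.69%, against 3.05%), and ACGTG, the letters at the core of the hypoxia response element, in 15 (28.8%, against 20.9%). The first 6 sequences below are the tested genes with a C at the annotated start and a pyrimidine run after it, and the others are the genes with a changed probe set. Each runs 5′ to 3′ over 30 bases with the first transcribed base as the 16th letter, and capitals mark runs of 5 or more C or T.
Rpl35, chr2:39005117-39005146, minus strand: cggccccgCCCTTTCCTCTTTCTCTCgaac
Rpl38, chr11:114668565-114668594, plus strand: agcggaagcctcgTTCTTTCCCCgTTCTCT
Rplp2, chr7:141447636-141447665, plus strand: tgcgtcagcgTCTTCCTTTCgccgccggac
Rps10, chr17:27635230-27635259, minus strand: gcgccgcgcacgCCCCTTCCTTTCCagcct
Rps18, chr17:33955651-33955680, minus strand: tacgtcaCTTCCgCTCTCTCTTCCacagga
Rps27, chr3:90213634-90213663, minus strand: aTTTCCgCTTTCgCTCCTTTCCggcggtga
Rpl13a, chr7:45128731-45128760, minus strand: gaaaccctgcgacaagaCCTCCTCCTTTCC
Rpl22, chr4:152324421-152324450, plus strand: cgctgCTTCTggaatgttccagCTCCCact
Rpl22, second start, chr4:152325711-152325740, plus strand: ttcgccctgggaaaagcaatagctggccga
Rpl41, chr10:128549154-128549183, minus strand: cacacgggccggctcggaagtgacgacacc
Rpl7l1, chr17:46782642-46782671, minus strand: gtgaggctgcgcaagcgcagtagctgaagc
Rps19bp1, chr15:80264292-80264321, minus strand: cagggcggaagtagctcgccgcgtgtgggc
No run of 5 or more pyrimidines is marked for Rpl41, Rpl7l1, Rps19bp1 or the second start of Rpl22. An annotated start can lie some bases from the one used in retina.

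Immediately after hypoxia the ribosomal protein messages were nearly level while the rest of the transcriptome moved. Of the 83 member probe sets tested at 0 h, 5 were called changed (6.02%), 2 higher and 3 lower, against 6091 of 18799 probe sets in all (32.4%), of which 15.2% were higher and 17.2% lower. The median change of the 83 was 0.01, beside -0.01 over all probe sets tested, and the median size of the change without its sign was 0.05 against 0.18. For 64 of the 83 (77.1%) the 95% interval of the change lay wholly within 1.2-fold in either direction, which held for 16.8% of all probe sets. The hypoxic and normoxic arrays did not overlap for 16 of the 83, against 45.4% of all, and 8 had an unadjusted p under 0.05 (42.1% of all). A change under 0 was found for 37 (44.6%, against 51.1%).

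The 5 calls lay in 4 genes, Rpl7l1, Rpl22, Rpl41 and Rps19bp1, and none of the 37 tested probe sets of the small subunit was among them. The count depended on single arrays: at 0 h, leaving out replicate 1 of hypoxia gave 3, replicate 2 of normoxia 2 and replicate 3 of normoxia 3, and it was 3 with both normoxic arrays that stood apart left out. Without Rps19bp1 it was 4 of 82. With the brightest probe set taken for each of the 44 genes that had a tested one, 1 was called at 0 h, that of Rps19bp1, so that no gene of a ribosomal protein was called on its brightest probe set. The plot of change by gene shows the called probe sets alone.

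**Figure D1:**
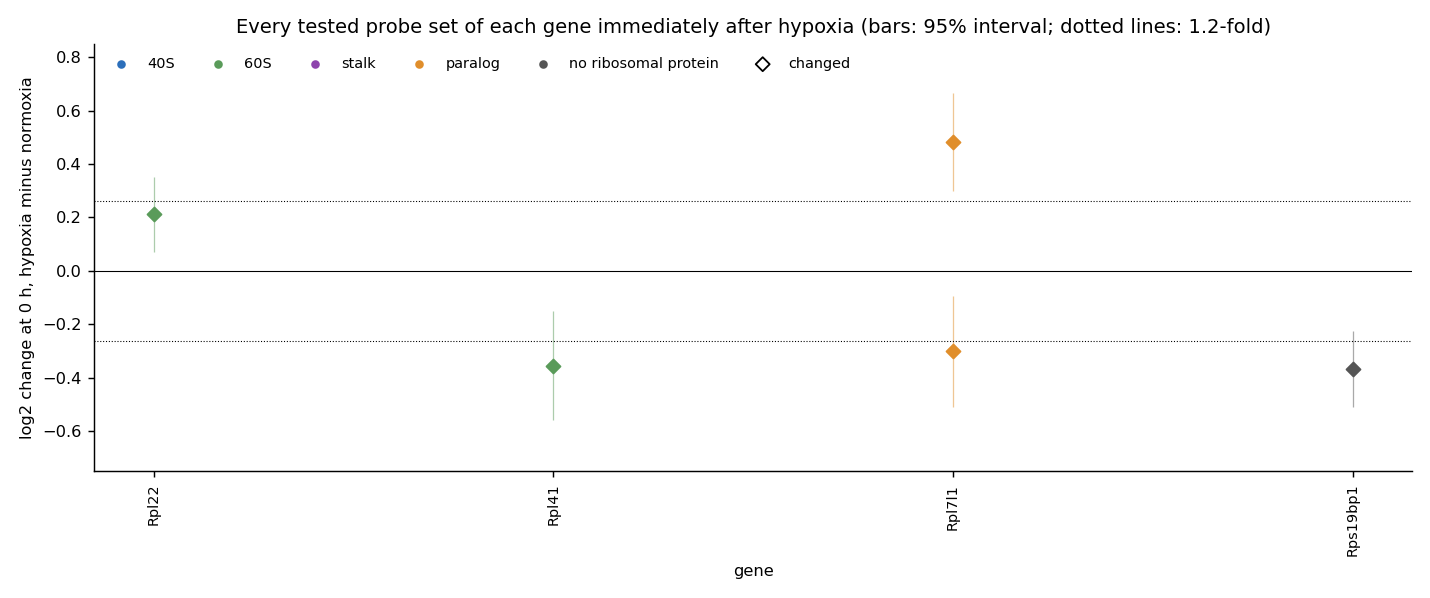
Each diamond is 1 probe set called changed at 0 h, and the others are not drawn, although the title names every tested probe set. It is placed by gene (x axis) and by its log2 change at 0 h, hypoxia minus normoxia (y axis). Bars give the 95% interval, dotted lines stand at 1.2-fold, and colours give the role. The 5 diamonds belong to Rpl22, Rpl41, Rpl7l1 (both directions) and Rps19bp1, and no probe set of the small subunit is one.

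Most of the genes were bright, and bright probe sets changed less often in general, so members were read against probe sets of the same brightness. Among the 51 members with a mean signal of 12 or more, 0 were called at 0 h, 1 had an unadjusted p under 0.05, and 49 (96.1%) had an interval within 1.2-fold. Of all 460 probe sets that bright, members included, 83 (18%) were called and 59.8% had such an interval. Among 14 members between 10 and 12, 1 was called (7.14%, against 27.4% of all in that range). Among 18 members under 10, 4 were called (22.2%, against 33.7%). Whether signals near the top of the scale are compressed was not tested.

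**Figure D2:**
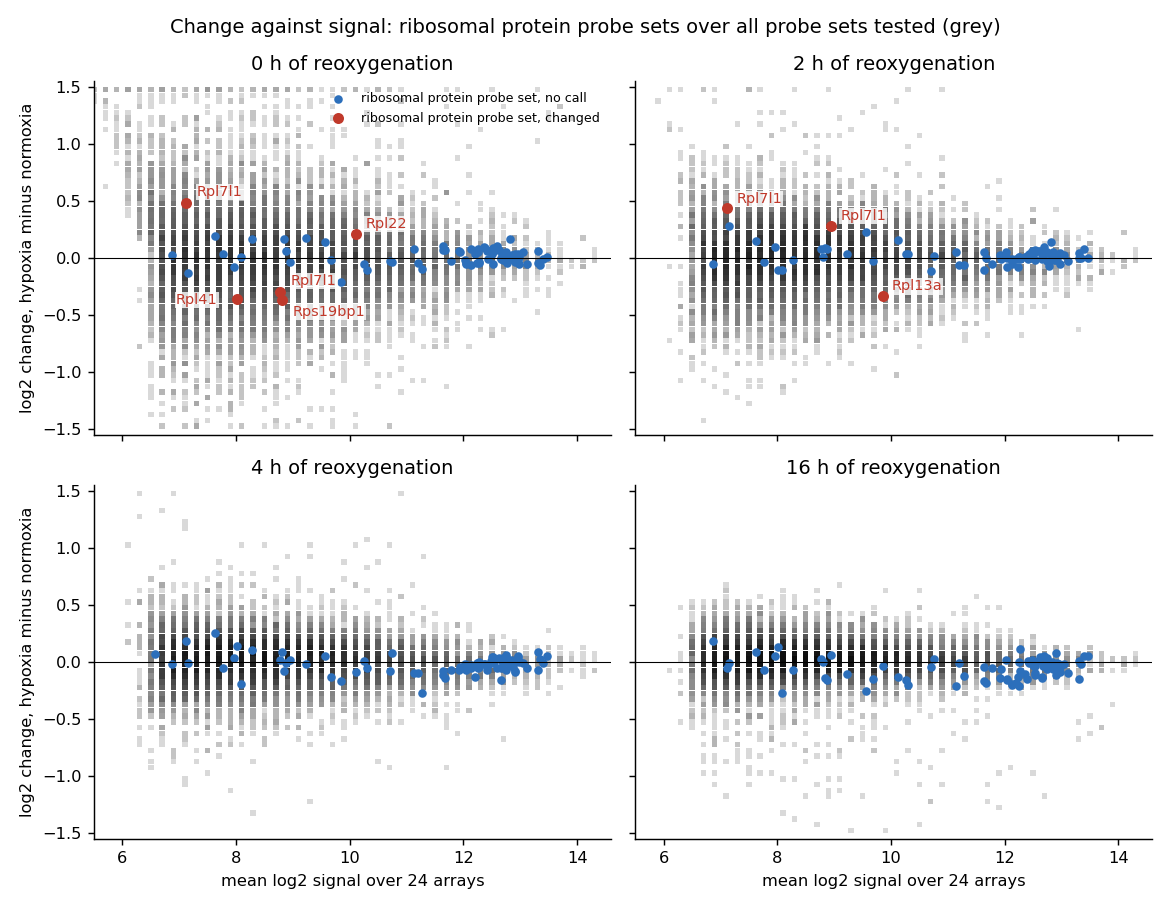
Each panel is a time point, with the mean log2 signal over 24 arrays on the x axis and the log2 change on the y axis; grey squares are counts of all tested probe sets, darker for more (changes beyond the axis are drawn at its edge), blue points are unchanged members and red points changed members. Members with a signal of 12 or more lie close to 0 in every panel, and the red points of 0 h and 2 h all lie under 11.

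None of the small subunit genes was called at any time. At 0 h their 37 tested probe sets had a median change of 0.01, the smallest adjusted p was 0.138 by limma (Rps27), and 33 (89.2%) had an interval within 1.2-fold. Rps24 is shown as an example and lies below that median. Its 4 tested probe sets had the closest agreement of the 19 genes with 2 or more tested ones: their changes ran from -0.05 to -0.04. On the brightest of them (1436064_x_at) the hypoxic arrays of 0 h read 13.07, 13.03 and 13.07 and the normoxic arrays 13.14, 13.09 and 13.09. All hypoxic arrays lay below all normoxic ones there, and the change of -0.05 was not called (limma adjusted p = 0.562). Rpsa, the laminin-binding protein of the small subunit, read 12.55, 12.43 and 12.47 after hypoxia and 12.58, 12.41 and 12.35 in normoxia, a change of 0.04 ± 0.07 (SE, n = 3 pools per group). Its groups overlapped. Rps10 had 5 tested probe sets with changes from -0.02 to 0.10 at 0 h.

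Neither gene of the stalk of the large subunit, where translation factors dock, was called at any time, and the interval lay within 1.2-fold for 1 of the 2 at each time point. Rplp0, which is often used as a reference gene, read 11.75, 11.59 and 11.50 on the hypoxic arrays of 0 h and 11.60, 11.41 and 11.53 on the normoxic ones, with a change of 0.10 ± 0.09 (SE; limma adjusted p = 0.398). Its changes at 2, 4 and 16 h were -0.11, -0.12 and -0.17, none of them called, though at 16 h its hypoxic arrays (11.37, 11.58 and 11.44) lay just below its normoxic ones (11.62, 11.68 and 11.58). Among the 4 normoxic groups Rplp0 had the smallest p of all members, with means that spanned 0.29 (limma F test, adjusted p = 0.141). Rplp2 changed by -0.01 at 0 h and by 0.02 or less in size at the later times.

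Rpl22, an RNA-binding protein of the large subunit, rose at 0 h on 1 of its 3 probe sets. On 1448398_s_at the hypoxic arrays read 10.25, 10.35 and 10.28 and the normoxic arrays 10.13, 10.07 and 10.05. The groups did not overlap, and the change was 0.21 ± 0.07 (SE; limma adjusted p = 0.0189). At 2 h the same probe set read 10.31, 10.25 and 10.20 against 10.12, 10.07 and 10.09, which is 0.16 and missed the threshold (adjusted p = 0.109). Its other probe sets changed by -0.04 and 0.05 at 0 h, the second being the brightest. Leaving out replicate 2 of hypoxia, or replicate 2 or 3 of normoxia, at 0 h ended the call (adjusted p up to 0.0764). The paralog Rpl22l1, whose level Rpl22 is known to restrain, changed by -0.10 ± 0.11 (SE) at 0 h and was not called at any time.

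Rpl41, the smallest ribosomal protein, fell on 1 probe set and not on its brighter ones. On 1454639_x_at the hypoxic arrays of 0 h read 7.58, 7.95 and 7.69 and the normoxic arrays 8.04, 8.24 and 8.01, all hypoxic below all normoxic arrays. The change was -0.36 ± 0.10 (SE; limma adjusted p = 0.00784). It missed the threshold when replicate 1 of hypoxia (-0.28, adjusted p = 0.0573) or replicate 2 of normoxia (adjusted p = 0.0511) was left out. The other tested probe sets, 1422623_x_at and 1455578_x_at, changed by -0.05 and -0.02. A dim one, 1433530_at, lay under the signal threshold and read 5.54, 5.88 and 5.92 against 6.10, 6.41 and 6.47. At 16 h the arrays of 1454639_x_at did not overlap either, with hypoxia above normoxia (0.13, adjusted p = 0.851). Names that end in _x_at mark probe sets that can also bind related transcripts.

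Rpl7l1, a relative of Rpl7 that acts in the maturing of the large subunit, was the tested member with the largest change at 0 h, and its 3 probe sets disagreed. On 1439780_at the hypoxic arrays of 0 h read 7.57, 7.56 and 7.62 and the normoxic arrays 7.14, 7.19 and 6.97, a change of 0.48 ± 0.09 (SE), or 1.40-fold (limma adjusted p = 0.000236). On 1452049_at they read 8.23, 8.60 and 8.66 against 8.70, 8.88 and 8.82, a change of -0.30 ± 0.10 (SE; adjusted p = 0.0243). The first rose and the second fell, with no overlap in either. On the brightest, 1426386_at, the change was -0.04. The fall was lost when replicate 1 of hypoxia (-0.17, adjusted p = 0.2) or replicate 2 or 3 of normoxia was left out, while the rise was called without any 1 array. Rpl7l1 is the only gene of the 19 with 2 or more tested probe sets whose probe sets were called in both directions, and the range of 0.78 between them was the widest. Which part of the transcript each probe set reads was not analysed here. Its relative Rpl7 changed by -0.04 to 0.03 over 3 probe sets. Of the other paralogs, Rps4l changed by 0.14, 0.23, 0.05 and -0.26 at 0, 2, 4 and 16 h with no call, and Rpl39, whose paralog Rpl39l was too dim to test, by 0.02 at 0 h.

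Rps19bp1, also known as an activator of the deacetylase Sirt1, fell at 0 h, though it is no ribosomal protein. Its hypoxic arrays of 0 h read 8.56, 8.63 and 8.56 and its normoxic arrays 9.04, 8.92 and 8.90. It fell by 0.37 on the log2 scale (SE 0.07; limma adjusted p = 0.0003) and was called whichever array was left out. By 2 h the change was 0.00.

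**Figure D3:**
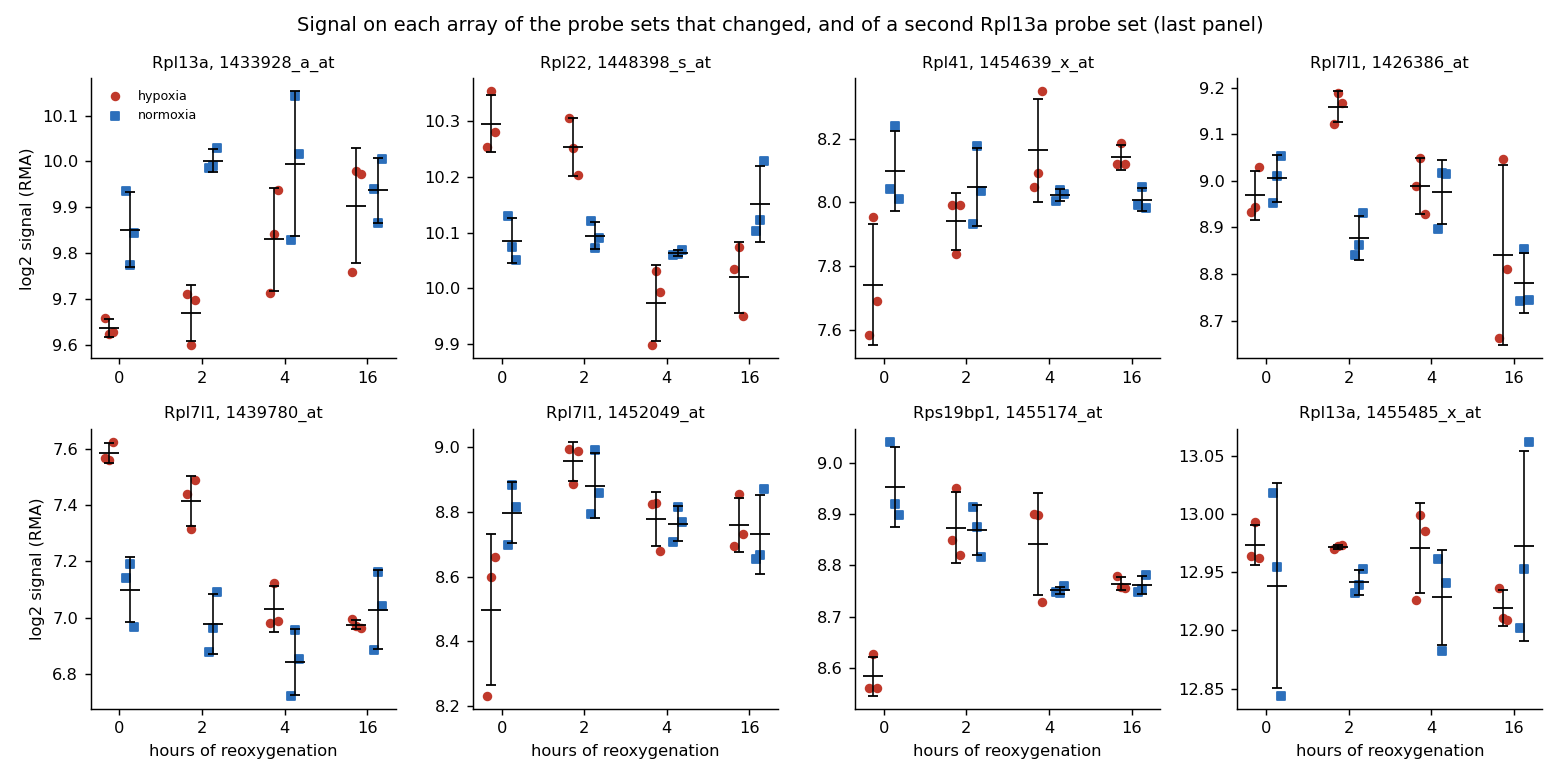
Each panel plots the log2 RMA signal of 1 probe set (y axis, with its own range) against hours of reoxygenation (x axis); red circles are hypoxic and blue squares normoxic arrays, with bars for the mean and SD of 3 arrays. Each changed probe set has no overlap of the treatments at 0 h or 2 h, where it was called; the last panel, a bright Rpl13a probe set, stays between 12.84 and 13.06 throughout.

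After 2 h of reoxygenation 3 of 83 member probe sets were changed (3.61%), 2 higher and 1 lower, against 3081 of 18587 in all (16.6%; 9.19% higher and 7.38% lower). Their median change was 0.01, that of all probe sets 0.01, and 68 (81.9%) had an interval within 1.2-fold, against 19.8%. The arrays did not overlap for 10 members, against 34.8% of all, 4 had an unadjusted p under 0.05 (30.2% of all), and 34 (41%) had a change under 0 (48.1% of all). None of the 51 members with a signal of 12 or more was called (10.4% of all that bright), and under 10 the share of members (3 of 18, 16.7%) was near that of all (16.8%).

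Both rises at 2 h were Rpl7l1. On 1439780_at the hypoxic arrays read 7.44, 7.31 and 7.49 against 6.88, 6.96 and 7.09, a change of 0.44 ± 0.09 (SE; limma adjusted p = 0.00217). On 1426386_at, which had no call at 0 h, they read 9.12, 9.19 and 9.17 against 8.84, 8.86 and 8.93. That is a change of 0.28 ± 0.08 (SE, limma adjusted p = 0.0231). The second call was lost without any 1 of the hypoxic 2 h arrays or without normoxia 2 h replicate 1 or 2 (adjusted p up to 0.071). The third probe set changed by 0.08.

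Rpl13a, which besides its place in the large subunit takes part in translational silencing after interferon gamma, gave the single fall. On 1433928_a_at the hypoxic arrays of 2 h read 9.71, 9.60 and 9.70 and the normoxic arrays 9.99, 9.99 and 10.03, a change of -0.33 ± 0.09 (SE; limma adjusted p = 0.0117), called whichever array was left out. At 0 h the same probe set read 9.66, 9.62 and 9.63 against 9.94, 9.77 and 9.84, also without overlap, and missed the threshold (-0.21, adjusted p = 0.0624). Its 3 other probe sets, all brighter, changed by -0.11, 0.03 and 0.06 at 2 h.

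At 4 h 0 of 84 members were changed by limma, with 4 at an unadjusted p under 0.05 (15.6% of all), against 264 of 18498 in all (1.43%; 0.876% higher and 0.551% lower). The arrays did not overlap for 20 members (27.3% of all probe sets), 14 of these (16.7% of members) with hypoxia below normoxia, against 10.2% of all. Among probe sets with a signal of 12 or more, hypoxia lay below without overlap for 13.7% of members and 22.8% of all. A change under 0 was found for 51 members (60.7%, against 44.3% of all), but among probe sets with a signal of 12 or more the share was 58.8% of members and 62.4% of all. The median of -0.01 turned to 0.01 with quantile normalization and to 0.0375 without the probe sets ending in _x_at, _s_at or _a_at. The last setting keeps a minority of the members. The 4 with the smallest p were Rps27 (0.25, adjusted p = 0.206), Rps10 on 1438723_a_at (-0.16, 0.218), Rpl22l1 (-0.27, 0.231) and Rpl7l1 on 1439780_at (0.19, 0.306). Rps27 is a zinc finger protein of the small subunit whose paralog Rps27l is a target of p53. Rps27 read 7.82, 7.55 and 7.64 after hypoxia against 7.45, 7.28 and 7.52, and its changes at 0, 2 and 16 h were 0.19, 0.15 and 0.09, none called. Rps27l changed by 0.06 to 0.17 over its 3 probe sets at 0 h, also with no call (smallest limma adjusted p = 0.0911).

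At 16 h 0 of 83 members were changed by limma and 0 of 18423 in all (0%), with 11 members and 1172 probe sets in all (6.36%) at an unadjusted p under 0.05. The 4 smallest p among members belonged to Rps10 and Rpl35. On Rps10 1434854_a_at the hypoxic arrays read 10.92, 11.04 and 10.99 and the normoxic arrays 11.17, 11.12 and 11.30, a change of -0.21. On Rpl35 1436840_x_at they read 12.09, 12.17 and 12.07 against 12.30, 12.37 and 12.27, also -0.21. The remaining probe sets were Rps10 1456497_x_at (-0.19) and Rpl35 1416243_a_at (-0.18), and each of the 4 had a limma adjusted p of 0.771. The arrays did not overlap for 25 of the 83 members, against 11.1% of all probe sets. In 24 of them (28.9% of members) hypoxia was below normoxia, against 4.18% of all. Among probe sets with a signal of 12 or more this held for 25.5% of members and 9.35% of all. With 1 probe set per gene it was 6 of 44 (13.6%).

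The members leaned below normoxia at this last time point as a group. Of the 83, 61 (73.5%) had a change under 0, against 42.4% of all probe sets, and the median was -0.05 (all: 0.02). Among probe sets with a signal of 12 or more, 72.5% of members and 56.5% of all had a change under 0, with medians of -0.03 and -0.01. With 1 probe set per gene it was 29 of 44 (65.9%), with a median of -0.02. Probe sets of the same gene read the same message on the same arrays, so these shares are a description. To see which arrays carried it, each member was set against its own mean over the 24 arrays and the median over members was taken. The hypoxic arrays of 16 h stood at -0.07, 0.00 and -0.07 and the normoxic ones at 0.01, 0.01 and 0.00. Replicates 1 and 3 of hypoxia were below all 3 normoxic arrays, and replicate 2 was among them. The means of these array medians at 16 h were -0.05 (SD 0.04) in hypoxia and 0.01 (SD 0.005) in normoxia. In normoxia at 0 h the SD was 0.05. These SDs describe single arrays and not a difference of means, and the lean itself was not tested. Without the probe sets ending in _x_at, _s_at or _a_at the median at 16 h was -0.00. That setting keeps a minority of the members and no tested probe set of Rpl35 or Rps10, so it reads a different set. The lens markers moved with these arrays. They averaged 10.7 and 10.4 on replicates 1 and 3 of hypoxia, 12.1 on replicate 2 and 11.6 to 12.4 in normoxia. On the normoxic arrays of 0 h, replicate 2 had a lens average of 7.74 and a member median of -0.03. Replicate 3 of that group had 11.9 and -0.07. At 16 h all 13 tested lens markers had a change under 0 (median -1.07, 0 called by limma and 0 at an unadjusted p under 0.05). All 7 tested pigment epithelium markers also had a change under 0 (median -0.45), with averages of 6.88, 7.46 and 7.34 on the hypoxic and 7.59, 7.67 and 7.25 on the normoxic arrays. Normoxia 16 h replicate 3 is the array with the high actin 3′ minus 5′ difference. The part of other tissue and of RNA quality in the lean was not tested.

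**Figure D4:**
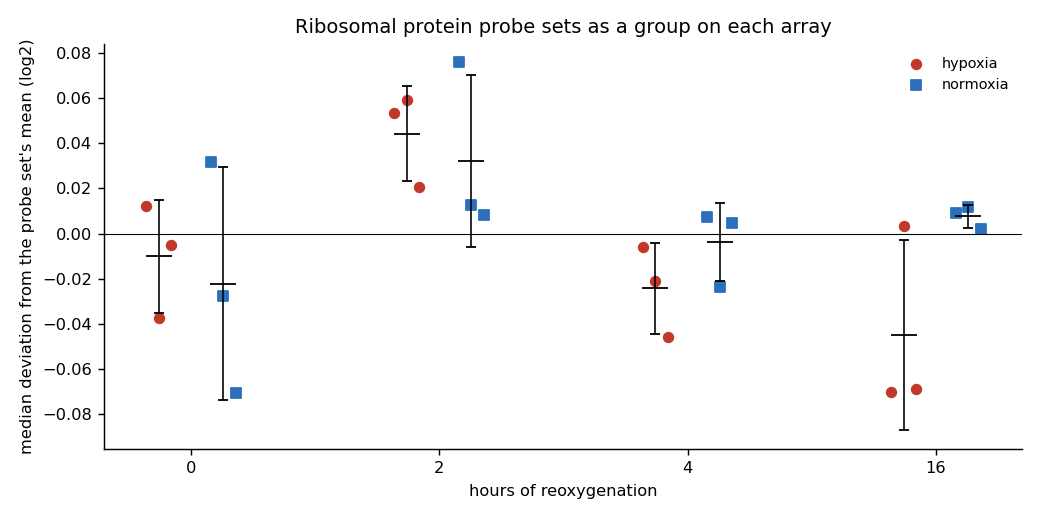
For each array (3 red circles for hypoxia and 3 blue squares for normoxia at each time of reoxygenation, x axis), the y axis gives the median over ribosomal protein probe sets of the deviation from the probe set's own mean, in log2 units, with bars for the mean and SD of 3 arrays. All 24 arrays lie between -0.07 and 0.08, and at 16 h replicates 1 and 3 of hypoxia lie under the normoxic arrays.

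Whether the response at 0 h differed from that at later times was tested as a difference of changes. It differed from 2 h for 1 member, Rps19bp1, more negative at 0 h, against 8.21% of 19098 probe sets (2.8% more positive and 5.41% more negative at 0 h), and 3 members had an unadjusted p under 0.05 (21.8% of all). It differed from 4 h for 3 members, of which Rpl22 was more positive and Rpl41 and Rps19bp1 more negative at 0 h, against 16.9% of 19087 (6.37% and 10.6%), with 6 at an unadjusted p under 0.05 (29.3% of all). It differed from 16 h for 4, these 3 and Rpl7l1 on 1439780_at, more positive at 0 h, against 20.6% of 19113 (8.74% and 11.8%), with 16 at an unadjusted p under 0.05 (33.1% of all). The comparisons share the arrays of 0 h. Leaving out replicate 1 of normoxia at 0 h or replicate 2 of hypoxia at 2 h ended the single call against 2 h, and leaving out replicate 2 of normoxia at 0 h or replicate 3 of hypoxia at 4 h left 1 of the 3 calls against 4 h. Among the normoxic groups, 0 of 84 members differed by the limma F test (2 at an unadjusted p under 0.05, against 20.3% of all), and 3.54% of 18738 probe sets did. After Rplp0 the smallest p among them were those of Rps19bp1 (means spanning 0.20, adjusted p = 0.167) and Rpl7l1 (0.22 and 0.26, adjusted p = 0.246 and 0.25).

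The members that the test left out were dim. Of the 106 probe sets, 22 reached the threshold at no time point, 83 were tested at every one, and Rpl12, Rpl14, Rpl39l, Rpl3l, Rps16 and Rps6 had no tested probe set. When all probe sets were tested, 11 members were called at 0 h, and the added ones were of dim probe sets: Rps10 1436384_at (-0.80), Rpl41 1433530_at (-0.55), Rps20 1421935_at (0.80) and 1450417_a_at (0.37), Rps4x 1420303_x_at (0.74) and Rps6 1416142_at (0.29). Rps10 1436384_at read 5.60, 5.70 and 5.52 against 6.28, 6.60 and 6.34, and Rps20 1421935_at read 5.41, 5.22 and 5.84 against 4.77, 4.62 and 4.66. The bright probe sets of Rps10 and Rps20 did not follow them: the 5 tested ones of Rps10 changed by at most 0.10 and the pair of Rps20 by -0.06 and -0.05. For Rpl41 the tested 1454639_x_at fell as well (-0.36), unlike its brighter ones, and Rps6 had no tested probe set. The residual spread of members tested at every time was also low, with a median SD of 0.07 against 0.12 for all, and close to that of all probe sets with a signal of 12 or more (0.06 for members and 0.07 for all that bright).

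The probe sets with several symbols also had few calls. Of 94 tested at 0 h, 2 were changed (2.13%, against 32.4% of all), both higher. They were that of Rpl5 and Rpl5-ps2 (0.34, limma adjusted p = 0.00407) and that of Rps15a and Rps15a-ps5 (0.49, adjusted p = 0.00685). At 2 h 1 of 93 was changed (1.08%, against 16.6% of all), that of Rpl37 and Rpl37rt (0.37, limma adjusted p = 0.0381). At 4 and 16 h 0 of 95 and 0 of 93 were called (1.43% and 0% of all). An unadjusted p under 0.05 was found for 2 at 4 h (2.11%, against 15.6% of all) and 7 at 16 h (7.53%, against 6.36%). At 16 h 72% had a change under 0 (members 73.5%, all 42.4%). Hypoxia lay below normoxia there without overlap for 11.8% (members 28.9%, all 4.18%). Transcripts of a gene and of its processed copies cannot be told apart on probe sets of several symbols.

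Other genes that make and use ribosomes were counted in the same way. Genes of the mitochondrial ribosome, a separate set coded by Mrpl and Mrps genes that translates the mitochondrial messages, had 54 of 123 tested probe sets changed at 0 h (43.9%; 17 higher and 37 lower) and 42 of 120 at 2 h (35.0%; 36 higher and 6 lower), against the 32.4% and 16.6% of all probe sets. At 0 h Mrpl35 fell by 1.17, Mrps25 fell by 0.94 and Mrpl34 fell by 0.85 on the log2 scale, and Mrps22 rose by 0.61 at 2 h. The probe sets of Mrpl15 went both ways at 0 h, from -0.74 to 1.29. Probe sets with symbols in Eif or Eef, the initiation and elongation factors and their regulators, were changed in 31 of 106 (29.2%) at 0 h and 19 of 105 (18.1%) at 2 h, near the shares of all probe sets. Among them Eif2ak1, the heme-regulated kinase of eIF2, rose by 0.78 at 0 h, the eIF2 subunit Eif2s2 by 0.52 and Eif5 by 0.50, and Eef1akmt1, a methyltransferase of eEF1A, fell by 1.00. No test compared these sets with the cytosolic ribosomal proteins. At 4 h the counts were 2 of 119 and 0 of 106, and at 16 h 0 of 119 and 0 of 105 by limma, with 9 and 7 at an unadjusted p under 0.05.

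**Figure D5:**
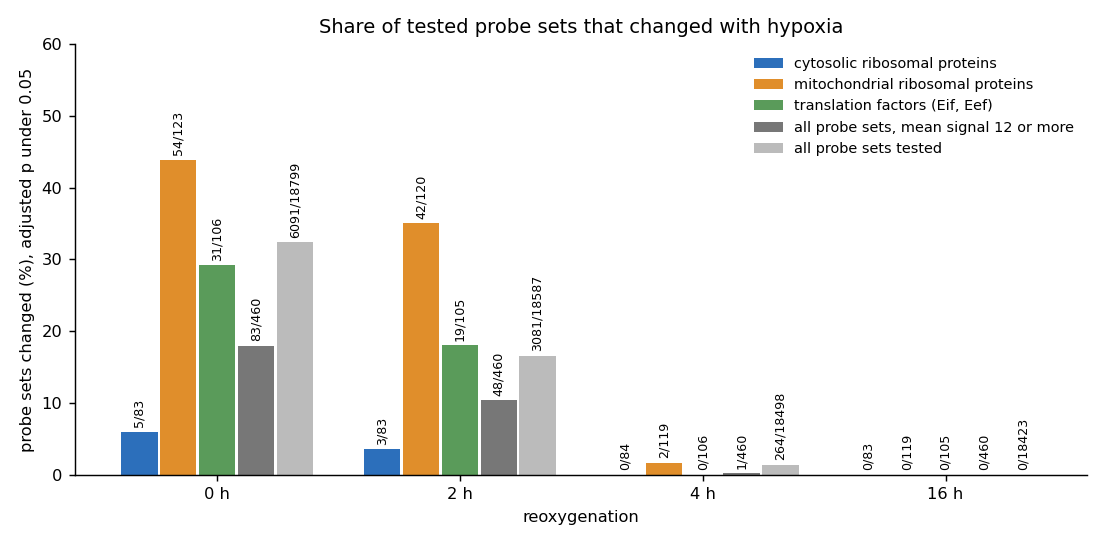
Bars give the share of tested probe sets (y axis, percent, from 0) called changed by limma at an adjusted p under 0.05, at each time of reoxygenation (x axis), for 5 sets, with the number changed and tested above each bar. The cytosolic ribosomal proteins have 5 of 83 at 0 h, where the mitochondrial ones have 54 of 123.

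Lists of the pathway were read with each gene on its brightest probe set, beside the 32.4% of all probe sets called at 0 h and the 16.6% at 2 h, and no test compared the lists. Of 15 other genes with TOP messages, 4 were higher at 0 h (26.7%) and 0 lower: Hnrnpa1, a splicing factor (0.25), Pabpc1, the poly(A)-binding protein (0.24), and the initiation factors Eif4b (0.21) and Eif3e (0.19). Eif4b and Eif3e were higher at 2 h too (0.25 and 0.21). Among 28 genes of ribosome assembly, 9 were higher and 6 lower at 0 h (53.6%), with Nop10 of the pseudouridylation complex at -0.77, the nucleolar GTPase Gnl3 at 0.55, the 40S maturation factor Tsr1 at 0.55 and the 60S export factor Lsg1 at 0.50. At 2 h 9 were higher (32.1%) and 0 lower, led by Nop58 and Gar1 of the small nucleolar RNPs (both 0.64), and at 4 h Pes1, a 60S assembly factor, alone was (0.43). Of 10 genes of RNA polymerase I transcription, 2 (20%) were called at each of 0 h and 2 h: Taf1d (0.53) rose and the largest subunit Polr1a (-0.40) fell at 0 h, and Taf1c (0.52) rose and Polr1a (-0.47) fell at 2 h.

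Genes that act on TOP messages through mTOR were called in 5 of 13 at 0 h (38.5%) and 3 of 12 at 2 h (25%), against 32.4% and 16.6% of all probe sets. At 0 h Eif4ebp1 (0.59) and Larp1 (0.21), which hold back TOP messages, and Sesn2 (0.56), a stress-induced inhibitor of mTORC1, rose, and the mTOR partner Mlst8 (-0.37) and its activator Rheb (-0.25) fell. At 2 h Tsc1 (0.42) and Eif4ebp2 (0.39) rose and Ddit4 (-0.75), an mTORC1 inhibitor, fell. None was called at 4 or 16 h by limma. Fau, which codes for a ubiquitin-like protein fused to Rps30, was the single other ribosomal subunit gene measured, and its changes of 0.13 at 0 h and 0.19 at 2 h missed the threshold (adjusted p = 0.21 and 0.0937). The markers of the pigment epithelium given above moved with the 0 h calls, and their part in them was not tested.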

How the data were processed

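The authors deposited log2 values made with RMA (no version given), whose background correction, between-array normalization and probe summary mean that changes are relative to the array and that an equal shift of all messages would not show. The paper's own lists used GCRMA, not used here. No columns were left out for lack of a sample. After 64 control probe sets were removed, 45037 were kept; 34945 carried 1 gene symbol, 932 several and 9160 none. The signal threshold of 6.69 is the density minimum between peaks at 3.80 and 7.90, as the methods filter. Tests used limma 3.58.1 in R 4.3.3: 1 model with 8 group means over 24 arrays (16 residual degrees of freedom), eBayes, and Benjamini-Hochberg adjustment over all probe sets tested in a comparison. Scripts were tested on simulated data. Signal over the threshold stands in for depth, and 3 pools per group limit precision. No 2 arrays were copies (highest correlation 0.997). Members, gene lists and comparisons were chosen with earlier results of these data known. A list gene was read on its probe set with the highest mean. Genes named were, per time point, up to 12 changed members each way, or the 4 with the smallest p where none changed, the paralogs, the stalk genes and Rpsa, up to 4 members whose change differed between times or among normoxic groups, and up to 4 changed genes per list. Rpl10a, Rps24, Rps20, Rps4x, Rps6, Rpl5, Rps15a, Rpl37 and the dim probe sets were named after their values were seen. Marker lists of Mueller glia, inner retinal neurons, microglia, erythroid, endothelial and fibroblast cells were averaged per array as well. Promoter windows came from RefSeq tables. Alternatives were no filter and a stricter one, array weights, median centring, quantile normalization, and a spread model with trend and robust fitting. Others were a replicate block, no probe sets ending in _x_at, _s_at or _a_at, the t-test of the methods, gene means, and each array left out. The 6 arrays of a time point and the normoxic arrays were also fitted alone. Chosen after seeing the data were the probe sets of several symbols, both outlying normoxic arrays left out, and no Rps19bp1.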

Additional observations from a re-analysis of the deposited data

Results flagged for a closer look

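The changes of 4 members differed between time points by the test of the difference itself (limma, contrasts of changes, adjusted over all probe sets). Rps19bp1 had a change at 0 h minus that at 2 h of -0.37 (adjusted p = 0.0186), minus that at 4 h of -0.46 (0.00223) and minus that at 16 h of -0.37 (0.00921), and it was called lower after hypoxia at 0 h alone. Rpl41 on 1454639_x_at differed from 4 h by -0.50 (0.0165) and from 16 h by -0.49 (0.0154). Rpl22 on 1448398_s_at differed from 4 h by 0.30 (0.0319) and from 16 h by 0.34 (0.0131). Rpl7l1 on 1439780_at differed from 16 h by 0.54 (0.00415), with no difference called against 2 h (0.05, adjusted p = 0.885), where it was still higher. With 1 array left out, the difference of Rpl22 from 4 h missed the threshold in 9 of 24 cases, that of Rpl41 from 4 h in 3 and from 16 h in 1, and that of Rps19bp1 from 2 h in 2; the other differences passed in each case.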

How the results depend on the processing

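No called change of a named member turned its direction under any alternative run, and over these members and alternatives it was kept in 485 cases and missed the threshold in 49. Many of the kept cases are fits without an array that took no part in the comparison, where little could change. The median change, close to 0, did change sign at 0 h (-0.01 without replicate 3 of normoxia). At 4 h it did so with quantile normalization and without _x_at, _s_at and _a_at probe sets. The 5 calls at 0 h became 11 with no filter, 3 without probe sets ending in _x_at, _s_at or _a_at, 2 with the 6 arrays alone, 3 by the methods' t-test (adjusted), 2 with gene means, 3 with both outlying normoxic arrays left out, and 2 to 6 with 1 array left out. The 3 calls at 2 h became 5 with no filter, 1 with the 6 arrays alone, 0 by the methods' t-test, and 2 to 3 with 1 array left out. With a trended and robust spread there was 1 call at 4 h and 1 among normoxic groups. Without the probe sets of these suffixes, which are most of the members, the median change was 0.0375 at 4 h and -0.00153 at 16 h. The count that differed between 0 and 2 h was 0 with a replicate block and without Rps19bp1, and 0 to 1 with 1 array left out. Between 0 and 4 h it was 6 with no filter and 1 without _x_at, _s_at and _a_at probe sets. It was 1 with both outlying arrays left out, and 1 to 3 with 1 array left out. Between 0 and 16 h it was 8 with no filter, 11 with a trended and robust spread, and 7 with array weights. There it was 2 without _x_at, _s_at and _a_at probe sets, 2 with both outlying arrays left out, and 3 to 5 with 1 array left out. Equal replicate numbers were not treated as pairing the arrays: once group means were removed, same-numbered arrays correlated at -0.23 to 0.24, with 2 of 12 above 0.1. The replicate block gave 4 calls at 0 h, losing Rpl22 (adjusted p = 0.0633), and lost Rpl22 against 4 and 16 h. The cause of these shifts was not tested, beyond the fewer or more probe sets and arrays that each setting leaves. Dim probe sets and 3 pools per group set the limit.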
